A study of Mus musculus with 6 samples.

Results

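The genes described here encode 6 of the parts of the hemidesmosome and of laminin-332, the attachment apparatus between epithelial cells and their basement membrane: Col17a1, Itga6, Itgb4, Dst, Lama3 and Lamb3. They were taken by name from a table of CPM values (counts scaled to a common library total), and 6 of 6 were present among 15431 genes used. The RNA came from epithelium of 3 regions of the wild type (WT) mouse stomach grown as flat (2D) cultures: antrum (labelled antrum/pylorus), corpus and forestomach. Each region had 2 libraries, labelled p2 and carrying the IDs AT75 and AT76. In the animal the antrum and corpus are lined by columnar, gland-forming epithelium, and together they are called glandular below, whereas the forestomach is lined by stratified squamous epithelium. Antrum and corpus cells shared a culture method. Forestomach cells were grown by a published method for epithelial basal cells, so in every comparison with forestomach the region and the culture method cannot be told apart. Strain, age and sex are not given in the labels, nor is it said that the libraries of a region came from separate animals, so the p-values refer to the spread from library to library, part or all of which may be technical.

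A hemidesmosome anchors the keratin filaments of a basal epithelial cell to the matrix below it. Its core is the integrin α6β4, a receptor whose chains are the products of Itga6 and Itgb4, together with the transmembrane collagen XVII (Col17a1, also called BP180). On the inside, plectin (Plec) and the epithelial form of dystonin (Dst, also called BP230 or BPAG1) link these receptors to keratins. On the outside they bind laminin-332, a matrix protein whose α3 and β3 chains are the products of Lama3 and Lamb3. Hemidesmosomes with collagen XVII and BP230 are a feature of stratified epithelia such as skin. A simpler form, made of integrin α6β4 and plectin without them, is known from simple epithelia such as intestine.

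RefSeq promoter sequences (build GRCm38.p6, 250 bases before to 50 bases after a start site) matched 3 of the 6 genes, and 4 are printed: that of Col17a1, the gene that differed most, that of the upstream of 2 Lamb3 starts, as an example of a gene with a smaller change, and both starts of Dst, because the table holds 1 value for all Dst transcripts. They lie at chr19:47691993-47692292 (minus strand) for Col17a1, at chr1:193301744-193302043 (plus strand) for Lamb3, and at chr1:34011345-34011644 and chr1:34160010-34160309 (plus strand) for the upstream and downstream starts of Dst. Capitals mark matches on either strand to any of 4 motifs, none of which overlap in these windows. The AP-1 motif was searched as TGANTCA. For the GC box, which Sp1 and related factors bind, the letters were GGGCGG. The TATA box, to which the general transcription machinery binds, was searched as TATAAA. The last was a half-site of the p53 family motif, searched as RRRCWWGYYY (R for A or G, W for A or T, Y for C or T). The full motif, which p63, a regulator of squamous basal cells, also binds, was not searched. The motifs were chosen with the levels of the genes known.
Col17a1: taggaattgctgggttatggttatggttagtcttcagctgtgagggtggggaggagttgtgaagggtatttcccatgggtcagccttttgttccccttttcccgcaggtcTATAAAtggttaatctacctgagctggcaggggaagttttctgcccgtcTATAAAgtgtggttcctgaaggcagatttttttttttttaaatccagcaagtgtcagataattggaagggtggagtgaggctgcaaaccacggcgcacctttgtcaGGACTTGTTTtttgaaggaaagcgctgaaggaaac
Lamb3: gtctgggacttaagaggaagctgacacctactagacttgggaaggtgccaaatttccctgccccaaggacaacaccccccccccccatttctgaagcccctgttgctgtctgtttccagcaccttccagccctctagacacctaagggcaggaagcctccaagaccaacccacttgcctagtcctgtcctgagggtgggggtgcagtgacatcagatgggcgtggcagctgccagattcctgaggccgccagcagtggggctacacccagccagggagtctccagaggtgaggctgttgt
Dst, upstream start: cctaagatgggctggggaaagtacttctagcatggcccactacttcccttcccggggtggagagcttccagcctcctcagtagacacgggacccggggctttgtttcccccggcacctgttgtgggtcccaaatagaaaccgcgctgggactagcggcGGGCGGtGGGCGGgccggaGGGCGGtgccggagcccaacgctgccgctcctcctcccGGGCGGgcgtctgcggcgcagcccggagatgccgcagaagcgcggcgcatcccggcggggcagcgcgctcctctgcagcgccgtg
Dst, downstream start: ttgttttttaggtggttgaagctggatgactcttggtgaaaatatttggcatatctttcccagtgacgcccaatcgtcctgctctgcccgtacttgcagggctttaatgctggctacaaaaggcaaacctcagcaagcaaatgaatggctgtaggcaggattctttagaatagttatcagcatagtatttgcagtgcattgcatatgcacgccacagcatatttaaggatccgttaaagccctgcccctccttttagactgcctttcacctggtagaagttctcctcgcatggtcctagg
The Col17a1 window held 2 TATAAA matches, beginning 140 and 91 bases before the start, and 1 p53 family half-site, which begins 15 bases after the start. TATAAA occurs in 13.6% and the p53 family half-site in 8.36% of 32851 RefSeq windows of this length. The upstream Dst window held 4 GC boxes, at least 1 of which occurs in 35.7% of windows, and was 70.3% G and C, while the downstream one was 46.0% G and C and held none of the 4 motifs. The printed Lamb3 window held none either, nor did that of the downstream Lamb3 start, which overlaps it and is not printed, and none of the 4 windows held the AP-1 letters, which occur in 7.81% of windows. These are matches of letters only.

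The squamous and columnar identity of the cultures showed in their markers. The summed level of 5 squamous basal genes (Krt5, Krt14, Trp63, Krt15 and Dsg3) was 1.47 to 3.28 CPM in the glandular libraries and 10234 to 11854 CPM in the forestomach libraries, and that of 7 columnar gastric genes was 4078 to 6099.5 CPM against 52.0 to 53.8 CPM. Libraries had about 36.9 to 47.7 M reads, as estimated from the even steps of the low values, of which 14.0 to 18.2 M lay on the genes used, and 3 reads were worth 0.063 to 0.0814 CPM. That floor covers counting error only. Of the immune markers Cd68 was at 3.61 to 4.84 CPM in glandular and 39.5 to 44.8 CPM in forestomach libraries, where Ptprc was listed at 0, and of the neural markers Tubb3 was at 0.38 to 1.95 CPM against 25.8 and 26.8 CPM. In bulk cultures, fewer cells of a type and less RNA per cell cannot be told apart.

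All 6 genes were lower in glandular than in forestomach cultures, but by very different amounts. Col17a1 and Lama3 stood at 0.238% and 1.87% of their forestomach level and Dst at 14.2%, whereas Itgb4, Lamb3 and Itga6 kept 43.7%, 44.1% and 48.4% of it. Fold changes are given as log2 differences of CPM + 1, which understate the change of genes with low levels, and were tested with limma over the 11891 genes that reached 1 CPM in at least 2 libraries, with Benjamini-Hochberg adjustment over all of them and a threshold of 0.05. All 6 genes passed that filter, all passed the test, and none was higher. The share of all tested genes that were called lower in this comparison was 26.7%. The 6 genes were chosen with earlier results of these data known. The median log2 fold change was -1.95 over the 6 genes and -0.13 over all tested genes.

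**Figure D1:**
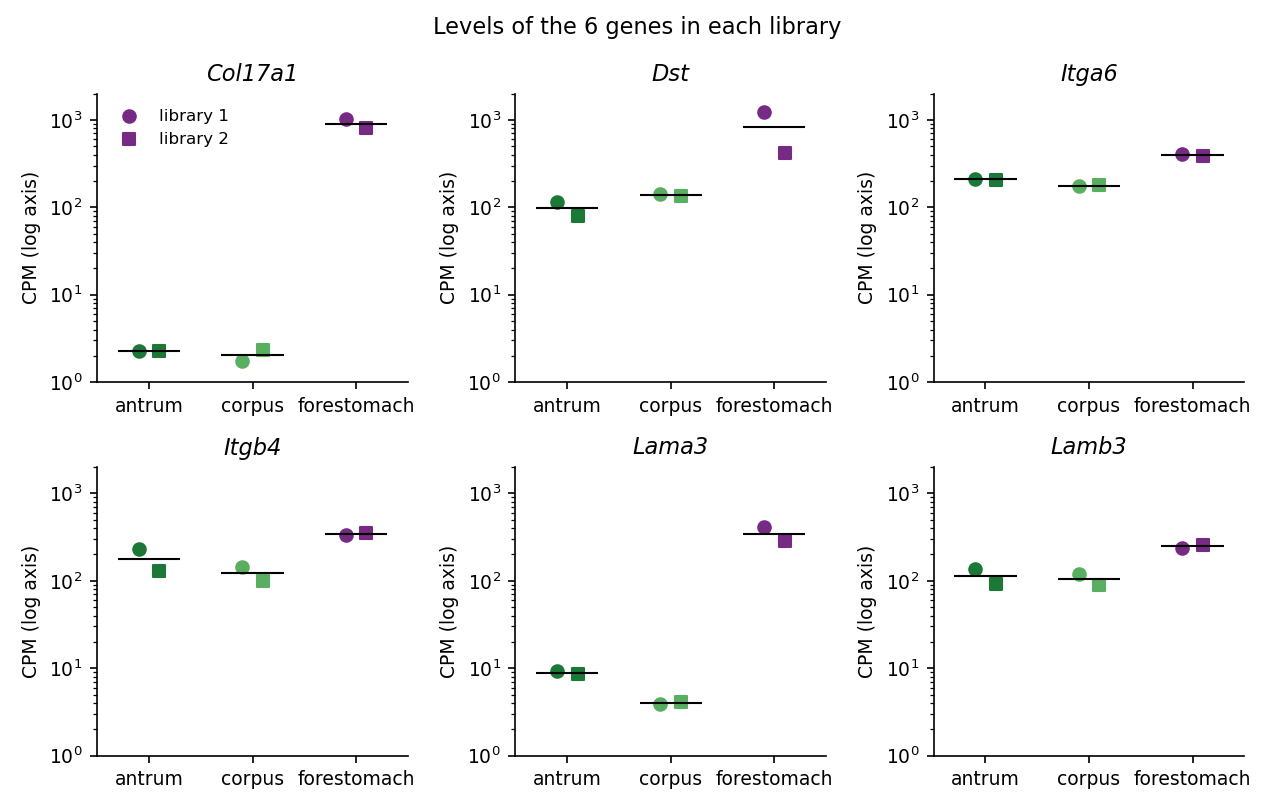
CPM (log axis) of each of the 6 genes in each library of antrum, corpus and forestomach cultures, with circles for library 1, squares for library 2 and a line at the mean. The forestomach libraries lie above all glandular libraries for every gene, with the widest gaps for Col17a1 and Lama3. How many of all tested genes are separated in this way was not counted. The forestomach libraries lie farthest apart for Dst, at 1244.5 and 416 CPM.

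Col17a1, the transmembrane collagen of the hemidesmosome, had 2.27 and 2.26 CPM in antrum 1 and 2 and 1.74 and 2.35 CPM in corpus 1 and 2, against 1012 and 802 CPM in forestomach 1 and 2. The glandular libraries lay close together and far below the forestomach libraries. Its log2 fold change was -8.16 (SE 0.23, limma adjusted p = 2.95e-08), the 10th most negative of all tested genes. The glandular value rested on about 64 to 112 reads per library, well over the level of 3 reads. Krt14, the keratin that marks squamous basal cells, was at 1.02 to 1.74 CPM in the same libraries, so that Col17a1 stood at 1.34 to 2.22 times the CPM of Krt14 in glandular libraries and at 0.140 and 0.114 times in forestomach libraries. What cells the glandular Col17a1 reads came from was not tested.

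The integrin chains differed far less. Itga6, the α6 chain, stood at 212 and 207 CPM in antrum and 175 and 178 CPM in corpus libraries, against 406 and 390.05 CPM in forestomach libraries. The libraries of a region were within a few percent of each other and no region overlapped another. The log2 fold change between glandular and forestomach cultures was -1.05 (SE 0.23, limma adjusted p = 0.00532). Itgb4, the β4 chain that carries the long cytoplasmic tail of the receptor, stood at 229 and 130 CPM in antrum and 142 and 99.8 CPM in corpus libraries, against 331 and 356 CPM in forestomach libraries. Here the antrum and corpus libraries overlapped, while all glandular libraries were below both forestomach ones, with a log2 fold change of -1.26 (SE 0.30, limma adjusted p = 0.00775). The ratio of Itga6 to Itgb4 CPM, in which the lengths of the genes are not taken out, was 0.926, 1.60, 1.23 and 1.78 in antrum 1, antrum 2, corpus 1 and corpus 2, against 1.23 and 1.09 in forestomach 1 and 2. The balance of the integrin chains thus overlapped between glandular and forestomach libraries.

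Dst, which encodes the keratin linker BP230 in epithelia and longer cytoskeletal linkers elsewhere, had 115 and 78.9 CPM in antrum and 142 and 135 CPM in corpus libraries, against 1244.5 and 416 CPM in forestomach libraries. All glandular libraries were below the forestomach ones, which were themselves 2.99-fold apart. The log2 fold change was -2.64 (SE 0.41, limma adjusted p = 0.000684). It was -1.85 without forestomach 1 and -3.43 without forestomach 2, and the gene was called in both cases. GENCODE M21 lists 8 coding transcripts of Dst, from 2643 to 23279 bases, and a value per gene does not tell which of them was read.

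Over tested genes with a known exon length, the difference between the forestomach libraries varied with that length. Over genes with exons of up to 2 kb the median log2 ratio of forestomach 1 to forestomach 2 was -0.02, and it was 0.18 for 2 to 5 kb, 0.49 for 5 to 10 kb and 0.80 over 10 kb (1081 genes). Over the same bins the medians of library 1 to library 2 were 0.23, 0.18, 0.09 and 0.01 in antrum and 0.22, 0.20, 0.12 and 0.01 in corpus. Between the groups compared, the median log2 ratio of glandular to forestomach was -0.43, -0.23, -0.01 and 0.29 from the shortest to the longest bin. Dst, with 41.155 kb of exon, had a log2 ratio of forestomach 1 to forestomach 2 of 1.58. Lama3, with 10.745 kb, was 0.54 apart, and the other 4 genes, with 6.011 to 9.025 kb, were between -0.11 and 0.33. With the trend of each library with exon length removed, an alternative chosen after seeing the data, all 6 genes were again called lower, Dst by a log2 fold change of -3.39 and the others by -8.20 to -1.24. The length used joins the exons of all transcripts of a gene, and the longest coding transcript of Dst has 23279 bases. The trend was not removed with another length, so the size of the Dst change in this alternative is uncertain. What gave rise to the length trend, and whether it bears on the gap of Dst between the forestomach libraries, was not tested.

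**Figure D2:**
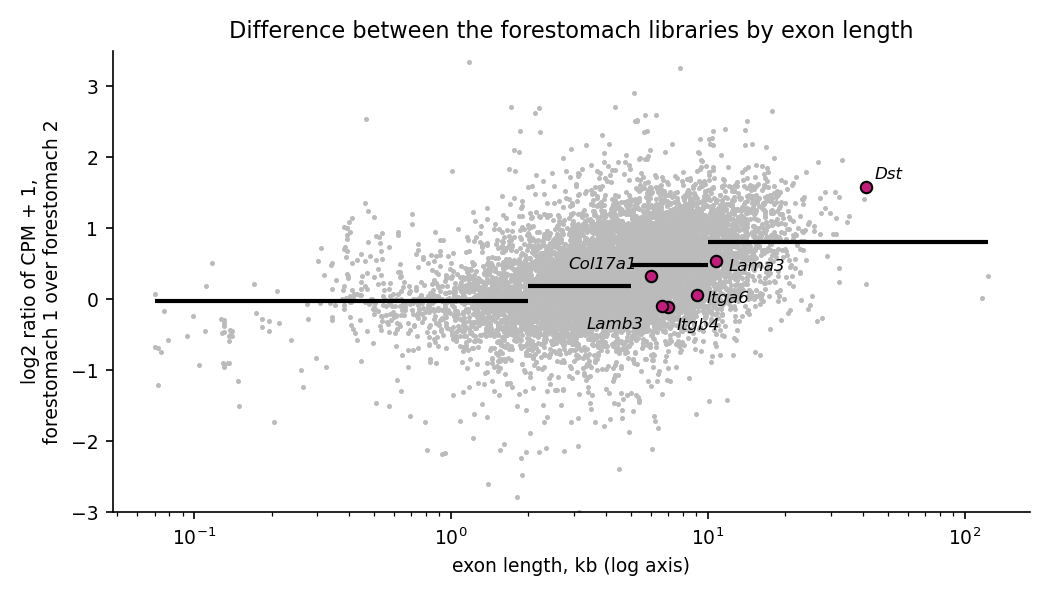
Log2 ratio of CPM + 1 between forestomach 1 and forestomach 2 against exon length in kb (log axis) for 10704 tested genes with a length in GENCODE M21 (5 lie outside the vertical range), with black lines at the median of each length bin and the 6 genes named. The medians climb from -0.02 in the shortest to 0.80 in the longest bin, and Dst lies at 1.58.

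The α3 and β3 chains of laminin-332 differed in the size of their change. Lama3, the α3 chain, stood at 9.29 and 8.57 CPM in antrum and 3.93 and 4.11 CPM in corpus libraries, against 410 and 281 CPM in forestomach libraries. Its log2 fold change was -5.59 (SE 0.24, limma adjusted p = 1.76e-07), the 39th most negative of all tested genes. Lamb3, the β3 chain, stood at 138 and 90.7 CPM in antrum and 119 and 88.9 CPM in corpus libraries, against 240 and 255 CPM in forestomach libraries. Antrum and corpus overlapped, and all glandular libraries were below the forestomach ones, with a log2 fold change of -1.20 (SE 0.27, limma adjusted p = 0.00546).

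Within a library, the ratio of Lama3 to Lamb3 CPM was 0.0674, 0.0945, 0.0331 and 0.0462 in antrum 1, antrum 2, corpus 1 and corpus 2, against 1.71 and 1.10 in forestomach 1 and 2. The glandular ratios were below both forestomach ratios. Scaling of a library drops out of such ratios. They are given as descriptions, with no test. GENCODE M21 lists a short and a long coding transcript of Lama3 (5551 and 10548 bases), which the table does not separate.

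**Figure D3:**
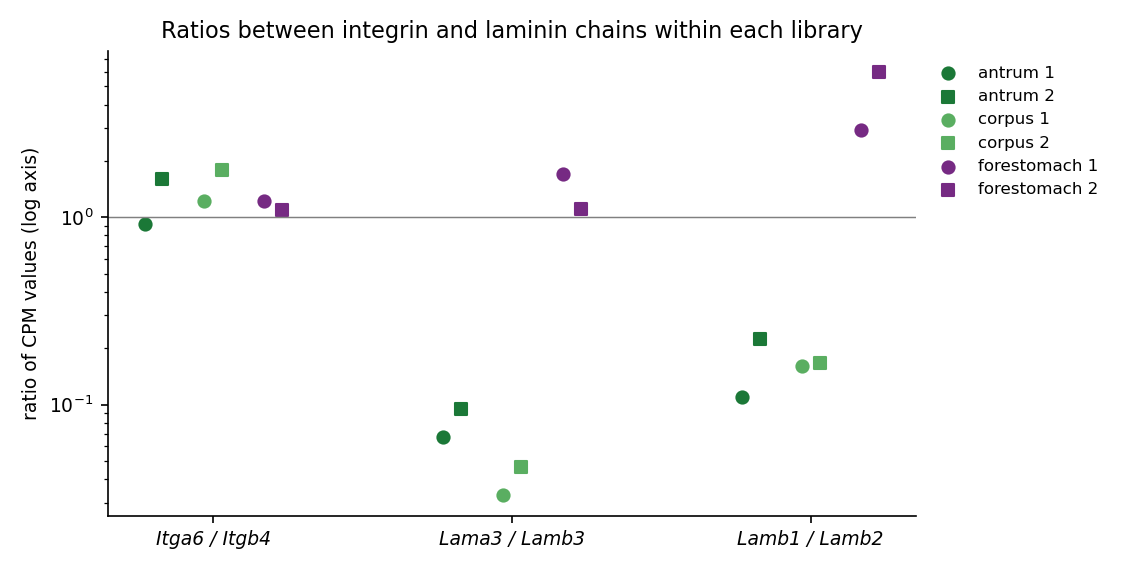
Ratios of CPM values (log axis) between the chains of integrin α6β4, between the α3 and β3 chains of laminin-332, and between the laminin chains Lamb1 and Lamb2, in each antrum, corpus and forestomach library. Lama3 to Lamb3 lies at 0.0331 to 0.0945 in the glandular libraries, against 1.10 and 1.71 in the forestomach libraries, while Itga6 to Itgb4 overlaps between them.

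To compare levels between genes, CPM was divided by the length of all exons of a gene in GENCODE M21, in kb. In the glandular cultures the mean levels per kb of exon were 21.4 for Itgb4, 21.4 for Itga6, 16.5 for Lamb3, 2.86 for Dst, 0.603 for Lama3 and 0.359 for Col17a1. In the forestomach cultures they were 151 for Col17a1, 49.01 for Itgb4, 44.1 for Itga6, 37.4 for Lamb3, 32.2 for Lama3 and 20.2 for Dst. Col17a1 was thus the highest of the 6 in forestomach cultures and the lowest in glandular ones. With the median coding transcript as length, Col17a1 was again first in forestomach cultures (164 per kb), and Dst, Lama3 and Col17a1 were again the lowest, in this order, in glandular ones, while the order of the others changed. Dst had 49.5 per kb in forestomach cultures by this length, against 20.2 by all its exons, so its place depends on the length taken.

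Each glandular region was also set against forestomach. The forestomach libraries are shared by these comparisons. In antrum cultures all 6 genes were called lower (18.7% of all tested genes were), with log2 fold changes of -8.11 for Col17a1, -5.10 for Lama3, -2.91 for Dst, -1.14 for Lamb3, -0.99 for Itgb4 and -0.92 for Itga6. The call of Itgb4 was near the threshold (limma adjusted p = 0.0489) and was lost in 7 of 16 alternatives, among them those without forestomach 1, forestomach 2, corpus 1, corpus 2 or antrum 2. That of Itga6 (limma adjusted p = 0.0241) was lost in 5 of 16, among them those without corpus 1, corpus 2, antrum 1 or antrum 2. Lamb3 (limma adjusted p = 0.0177) lost its call without antrum 2 only. Over the alternatives the limma adjusted p ran from 0.00139 to 0.142 for Itga6, from 0.00879 to 0.368 for Itgb4 and from 0.00238 to 0.182 for Lamb3, with the highest value of each without antrum 2. In corpus cultures all 6 genes were called lower as well (26.5% of all tested genes were), with log2 fold changes of -8.22 for Col17a1, -6.08 for Lama3, -2.37 for Dst, -1.52 for Itgb4, -1.26 for Lamb3 and -1.17 for Itga6. Without corpus 2 the calls of Itga6, Itgb4 and Lamb3 were lost, and without corpus 1 that of Itga6. Over the alternatives the limma adjusted p ran from 0.00131 to 0.0636 for Itga6, from 0.00285 to 0.0779 for Itgb4 and from 0.00375 to 0.112 for Lamb3, with the highest value of each without corpus 2.

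Antrum and corpus cultures, grown by the same method, did not differ past the threshold for any of these genes, but 2 libraries a region leave wide intervals. No member was called in antrum against corpus by limma, and 1 of 6, Lama3, had an unadjusted p under 0.05, which 7.93% of all tested genes had. Of all tested genes, 0.555% were called higher and 0.202% lower in antrum. Lama3 averaged 8.93 ± 0.509 CPM in antrum and 4.02 ± 0.127 CPM in corpus cultures (SD, n = 2 each), without overlap, with a log2 fold change of 0.98 (95% interval 0.36 to 1.60, limma adjusted p = 0.244). Itga6 and Itgb4 had log2 fold changes of 0.25 (95% interval -0.36 to 0.86) and 0.53 (-0.26 to 1.31). Col17a1 and Lamb3 were at 0.11 (-0.49 to 0.70) and 0.12 (-0.58 to 0.82), and Dst at -0.54 (-1.61 to 0.53). All of these intervals but that of Lama3 include 0. Both antrum libraries were above both corpus libraries for Itga6 and below them for Dst. How many of all tested genes were separated in this way was not counted, so this is a description only, as for Lama3. The median log2 fold change over all tested genes was 0.21 in antrum against corpus.

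**Figure D4:**
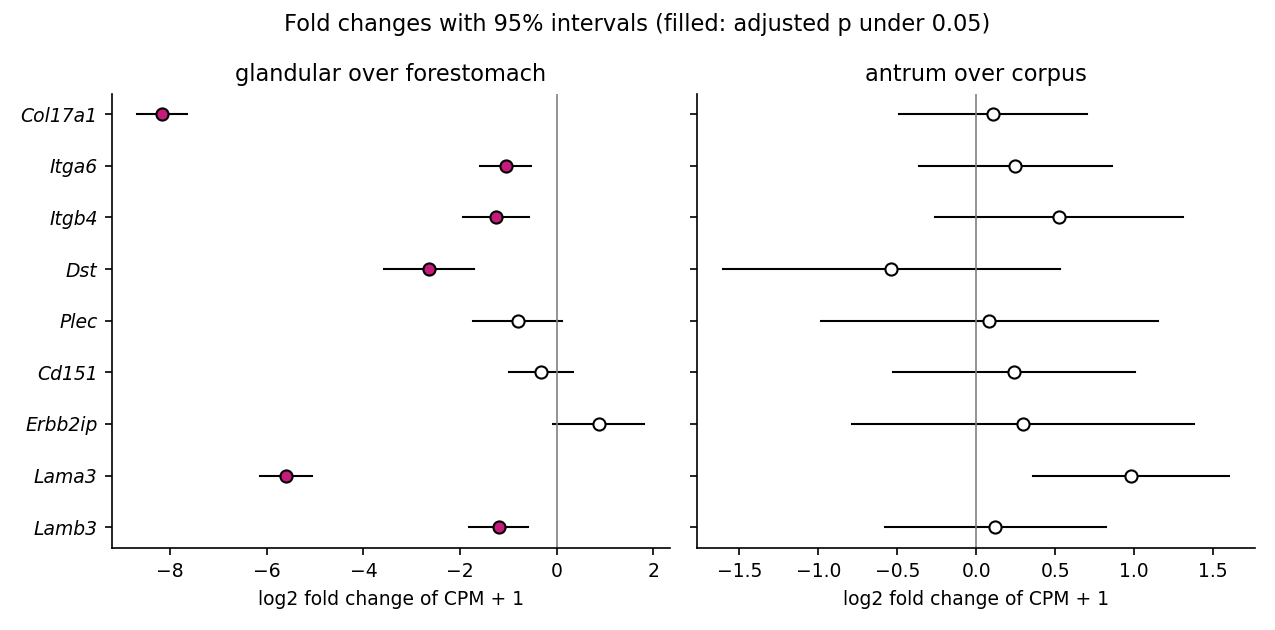
Log2 fold changes of CPM + 1 with 95% intervals from limma for 9 hemidesmosome and laminin-332 genes, for glandular over forestomach on the left and antrum over corpus on the right (the axes differ), with filled points for an adjusted p under 0.05. Col17a1 and Lama3 stand at -8.16 and -5.59 on the left, and no gene is called on the right.

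The other parts of the hemidesmosome did not pass the test between glandular and forestomach cultures. Plec, which links integrin α6β4 to keratins in all epithelia, stood at 489, 302, 439 and 301 CPM in antrum 1, antrum 2, corpus 1 and corpus 2, against 1044 and 411 CPM in forestomach 1 and 2 (log2 fold change -0.81, 95% interval -1.73 to 0.12, limma adjusted p = 0.133). Like Dst it was far apart between the forestomach libraries. The tetraspanin Cd151, a partner of laminin-binding integrins, averaged 53.7 ± 13.6 CPM in 4 glandular libraries and 67.9 ± 21.4 CPM (SD) in 2 forestomach libraries (limma adjusted p = 0.387). Erbb2ip (erbin), which binds integrin β4 and BP230, stood at 152, 177, 129 and 138 CPM in antrum 1, antrum 2, corpus 1 and corpus 2, against 146 and 43.7 CPM in forestomach 1 and 2 (95% interval of the log2 fold change -0.06 to 1.82, limma adjusted p = 0.111).

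Genes of the same surroundings that are no members went both ways. Of 57 such genes in 7 lists, 47 were tested, of which 17 were higher and 13 lower in glandular cultures and 17 did not pass. Over all tested genes 21.1% were higher and 26.7% lower. The median log2 fold change of the 47 genes was 0.28. In antrum against corpus, limma called none of the 47, and 4 had an unadjusted p under 0.05, Col4a2, Itga2 and Nid2 being higher and Lama2 lower in antrum.

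RNA levels of keratin genes differed in opposite directions between the cultures. The attachment of keratins to hemidesmosomes was not measured. Krt5 and Krt14 were at 0.51 ± 0.34 and 1.35 ± 0.30 CPM in glandular cultures  against 3164 ± 779 and 7141 ± 121 CPM in forestomach cultures (SD over 4 and 2 libraries). The keratins of simple epithelia, Krt8 and Krt18, were at 1260.1 ± 384 and 880 ± 269 CPM, against 0.55 ± 0.06 and 5.58 ± 3.54 CPM.

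Of 6 tested laminin chains outside laminin-332, 3 were higher and 1 was lower in glandular cultures. Lamb1, a β chain of many laminins, was at 3.25, 4.86, 3.91 and 2.92 CPM in antrum 1, antrum 2, corpus 1 and corpus 2, against 48.5 and 44.7 CPM in forestomach 1 and 2 (log2 fold change -3.35, SE 0.24, limma adjusted p = 4.31e-06). Lamb2, the alternative β chain, was higher (23.2 ± 5.01 against 12.04 ± 6.45 CPM, limma adjusted p = 0.0354), and the ratio of Lamb1 to Lamb2 was 0.110 to 0.225 in glandular and 2.92 and 5.98 in forestomach libraries. Lama2 and Lama4, chains of mesenchymal and vascular laminins, were higher but stood at 1.35 ± 0.68 and 1.80 ± 0.27 CPM in glandular cultures. Lama5, the α chain of epithelial laminin-511, did not pass (225 ± 70.9 against 141 ± 76.01 CPM), nor did the γ chain gene Lamc1 (78.4 ± 12.7 against 83.3 ± 44.2 CPM). Lama1 and Lamc3 stayed under 1 CPM in every library.

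Other integrins also went both ways, 5 of 9 tested being higher and 2 lower. Itga3, whose product pairs with β1 as another laminin-332 receptor, was lower (log2 fold change -1.45, SE 0.34, limma adjusted p = 0.00679), at 139 ± 47.0 against 368 ± 64.2 CPM. Itga5, of the fibronectin receptor, was lower as well (-0.91, limma adjusted p = 0.0104). The collagen receptor chains Itga1 (3.35, limma adjusted p = 1.62e-06) and Itga2 (26.4 ± 13.5 against 3.75 ± 2.55 CPM, limma adjusted p = 0.00029) were higher, with Itga1 at 13.0 ± 2.82 against 0.35 ± 0.07 CPM, and so was Itga9 (2.22, limma adjusted p = 2.86e-05). Itgb1, the shared partner of these α chains, stood at 237 ± 11.7 in glandular and 232 ± 3.22 CPM in forestomach cultures (95% interval of the log2 fold change -0.50 to 0.55).

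Of 11 tested basement membrane and anchoring fibril genes 4 were higher and 4 lower. The network collagen genes Col4a1 and Col4a2 rose most among them. Col4a1 stood at 206, 167, 140 and 112 CPM in antrum 1, antrum 2, corpus 1 and corpus 2, against 0.34 and 0.10 CPM in forestomach 1 and 2 (log2 fold change 6.98, SE 0.24, limma adjusted p = 5.53e-08), and Col4a2 had a log2 fold change of 5.95 (limma adjusted p = 2.07e-07). The perlecan gene Hspg2 (2.18, limma adjusted p = 0.000562) was higher too. Col7a1, the collagen of the anchoring fibrils below hemidesmosomes, had 0.73 to 0.83 CPM in the glandular libraries against 14.6 and 4.31 CPM in the forestomach libraries (-2.36, limma adjusted p = 0.000633). Col18a1 (-2.34, limma adjusted p = 9.89e-05) and Fras1 (-1.86, limma adjusted p = 0.0241) were lower as well, Fras1 with 22.6 and 2.75 CPM in the forestomach libraries.

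Markers of fibroblasts and feeder cells were higher in glandular libraries, as were Col4a1 and Col4a2, whereas Col7a1, Col18a1 and Fras1 were lower. The summed level of 9 such markers was 37.5 to 80.3 CPM in glandular libraries and 0.12 to 0.29 CPM in forestomach libraries, where Col1a2, Col3a1, Pdgfrb, Lum and Thy1 were listed at 0, and 4 of 9 reached 1 CPM in all glandular libraries against 0 of 9 in forestomach. Their sum was below the level of Col4a1 in every glandular library, but CPM values of different genes do not tell which cells the reads came from. The part of such cells in the levels of Col4a1, Col4a2, Lama2 and Lama4 was not tested. Endothelial markers summed to at most 1.46 CPM and smooth muscle markers to at most 2.62 CPM in glandular libraries, against at most 0.50 and 4.56 CPM in forestomach libraries.

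Of 5 tested proteases listed for processing or shedding matrix and surface proteins, 2 were higher and 2 lower. Mmp14 (-3.73, limma adjusted p = 2.46e-06) and Bmp1 (-2.29, limma adjusted p = 4.84e-05), which process matrix proteins, were lower, with Mmp14 at 1.69 ± 0.44 in glandular and 34.8 ± 6.77 CPM in forestomach cultures. Adam10 (1.84, limma adjusted p = 0.0011) and Adam9 (1.10, limma adjusted p = 0.0235), proteases that shed surface proteins, were higher. Of 9 tested focal adhesion genes 6 did not pass. Fermt1, the epithelial kindlin that activates integrins, was higher (1.32, limma adjusted p = 0.00167), and Fermt2 (-1.76, limma adjusted p = 7.98e-05) and Lims1 (-1.42, limma adjusted p = 0.00165) were lower. Ilk had at most 0.13 CPM in any library and did not enter the fit. Whether this reflects little Ilk RNA or how reads were assigned to the gene was not tested.

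**Figure D5:**
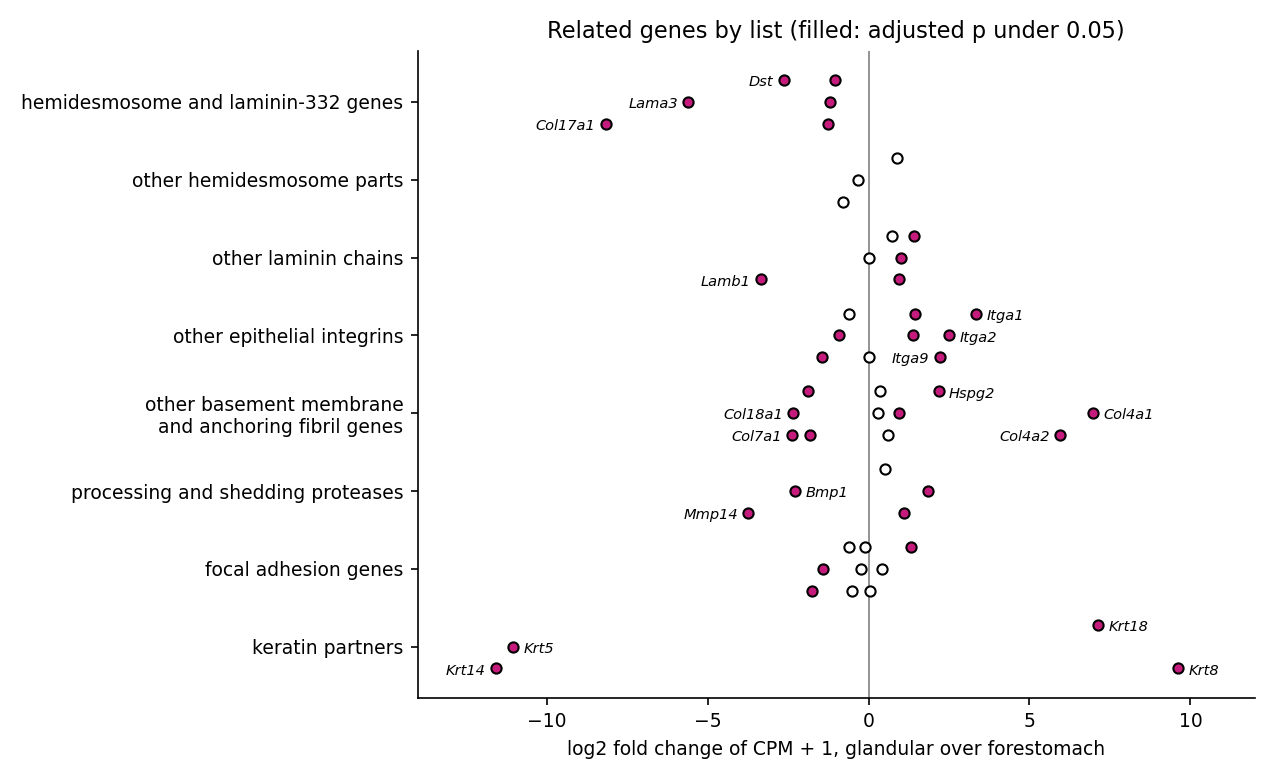
Log2 fold changes of CPM + 1, glandular over forestomach, for the 6 genes and for the tested genes of 7 related lists (vertical offsets only separate points), with filled points for an adjusted p under 0.05 and names for called genes beyond 2. The 6 hemidesmosome and laminin-332 genes all lie below 0, while 17 of the 47 related genes are called higher and 13 lower.

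Patterns over the 6 libraries were compared by Pearson's r of log2(CPM + 1), as a description over 6 libraries that fall into regions. Among the 6 genes r was between 0.768 (Itgb4 and Dst) and 0.998 (Lama3 and Itga6). Outside them, Col17a1 was most like Trp63, Gna15 and Hspb1 (r of at least 0.9996), Lama3 most like Pvrl1, Dusp14 and Fat2, and Itga6 most like Depdc7, Lass3 and Pvrl1. Dst was most like Kctd15, Rab38 and Agtpbp1, Itgb4 most like Cops7a, Mettl13 and Mrpl4, and Lamb3 most like Nsun5, Med9 and Ndfip2. The mean profile of the 6 genes was most like Ehd2, Bod1, Pwp2, Tjap1, Il17rc, Cdc16, Pcdhga9 and Dusp7. With regions this far apart such likeness is common, since 1174 of 7652 genes with a mean of 10 CPM or more in a region had r over 0.95 with the mean profile.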

How the data were processed

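Values are CPM as deposited, in 1 table of 6 libraries, made after Ribo-Zero removal of ribosomal RNA, per the labels' protocols. The submitters' processing notes name mm9 as build and the tools HTSeq, STAR, edgeR and DESeq2. For their versions, the annotation and the strand setting, nothing was found in the labels. Exons of Itgb4, Dst and Lama3 overlap noncoding genes of the opposite strand in GENCODE M21, whose reads may not be told apart. The columns give a region and a number but no sample ID, so each was assigned to its region only; the pylorus columns are the antrum group. Of 15450 rows, 19 with a date as symbol were left out.

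Genes at 1 CPM or more in 2 of 6 libraries were fitted as log2(CPM + 1) with limma 3.58.1 (R 4.3.3). The fit had 3 group means, an intensity trend, and 3 residual and 6.1 prior degrees of freedom. Tests were two-sided and adjusted over all 11891 genes. The fit was also run on simulated data with independent noise of 1 common spread. Those data held no length trend and no shared deviations of libraries, so they do not show how the fit behaves under these. Depth came from the steps of low values (100% within 0.0051 CPM of whole reads); the totals are estimates, and no count test was run. Exon lengths came from GENCODE M21, found for 91.5% of genes, and motifs were searched with Python 3.11.15. The members and lists were chosen with earlier results of these data known. All members are named, lists of up to 4 genes are named in full, and from longer lists up to 3 called genes with the largest change each way; likeness used genes with a mean of at least 10 CPM in a region. Named besides these, after their values were seen, are Nid2, Lama5, Lamc1, Lama1, Lamc3, Itgb1 and Ilk. Alternatives changed the pseudocount, filter, scaling, trend, libraries and block. Another gene of the lists is not reported here.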

Additional observations from a re-analysis of the deposited data

Results flagged for a closer look

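Among the 4 glandular libraries, the Col17a1 level of corpus 1 (1.74 CPM) lay apart from the other libraries (2.26, 2.27 and 2.35 CPM). Its gap to the nearest of them was 0.852 of the whole range, above the 95% limit of Dixon's test for 4 values. The test marks about 1 group in 20 by chance, and 6 genes were tried in the glandular libraries. Against 802 and 1012 CPM in forestomach the difference is small.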

How the results depend on the processing

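In glandular against forestomach all 6 genes kept their direction and their call under all 15 alternatives (14 planned and 1 chosen after seeing the data). The smallest change, that of Itga6, ranged from -1.24 to -0.84 on the log2 scale and from -1.13 to -0.80 against the median over all genes. Rescaling the listed genes of each library to 1 total moved that median from -0.13 to 0.06, and the split of all called genes from 2508 higher and 3175 lower to 3668 and 3014. In corpus against forestomach this rescaling moved the split from 2032 and 3146 to 3143 and 2765, and in antrum against corpus median ratio scaling moved it from 66 and 24 to 41 and 25 and the median from 0.21 to 0.01. With 1 library left out, 3 to 6 genes were called in corpus against forestomach and 3 to 5 in antrum against forestomach, and all 6 in glandular against forestomach. No direction of a called member turned. The lone library of a region is then assumed to vary like the others. In antrum against corpus none of the 6 was called under any alternative, where 10 to 76 genes in all were called, against 90. Without corpus 2, 3005 genes in all were called in corpus against forestomach, against 5178, and without antrum 1 or antrum 2, 3007 or 3008 in antrum against forestomach, against 4630. With the column number as a replicate block 6 members were called in glandular against forestomach, and 33 genes in all in antrum against corpus. The deviations of same-numbered libraries had r = 0.61 between antrum and corpus, -0.11 between antrum and forestomach and -0.06 between corpus and forestomach across genes. Same-numbered antrum and corpus libraries thus deviated together, whereas those of forestomach did not deviate with them. The numbers are not tied to the IDs, so whether they mark pairs cannot be told. The reported fit took no pairs, also in antrum against corpus. A fit of only the libraries compared is the reported fit for glandular against forestomach. The lowest member, Col17a1, rested on 64 or more reads per library, and the 2 libraries per region limit the precision.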
